A study of Mus musculus with 19 samples.

Results

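The 33 genes described here code for the proteins that bring glucose into a cell, break it down to pyruvate and lactate, and store it as glycogen. They were listed by name from the pathway, with earlier results of these data known: 5 glucose transporters, 10 genes of upper glycolysis, 6 of lower glycolysis, 6 of lactate and pyruvate fate, and 6 of glycogen and fructose bisphosphatase. All 33 were found by symbol among the 49089 genes of the deposited count table, and 32 of them were among the 17222 genes that reached at least 3 CPM (counts scaled to a common library total) in at least 3 of the 19 libraries. Fbp2, the muscle form of fructose bisphosphatase, did not pass, with at most 0.531 CPM in any library, and was not tested.

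The RNA came from the endometrium, the inner lining of the uterus, of wild-type C57Bl/6 mice. CONT comprised 3 libraries from estrous females that received no treatment (replicates 1, 2 and 4). INT comprised 4 libraries from females mated with intact BALB/c males and taken on day 3.5 pc (post coitum, shortly before implantation). SVX, SVX_VAS and VAS comprised 4 libraries each from females mated with surgically altered males, named here by the columns of the count table. Sample titles and column names give different surgeries for these 3 groups, so no surgery is attached to them. The methods give an age of 8 to 14 weeks for the females housed with males. Each library was a pooled sample, so p-values measure the spread between these pools. Estrous tissue was taken late in the evening and day 3.5 pc tissue around noon, and mating, cycle stage and time of day cannot be told apart in any comparison with CONT.

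Glucose crosses the plasma membrane through carriers of the SLC2A (GLUT) family and is trapped inside the cell by hexokinase. Phosphofructokinase commits it to glycolysis, pyruvate kinase yields pyruvate, and pyruvate is either reduced to lactate, which leaves through monocarboxylate transporters, or passed to the mitochondrion by pyruvate dehydrogenase, which the PDK kinases switch off. Most of these steps have several isozymes with different tissue patterns, and the endometrium also lays down glycogen, which can serve the early embryo.

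The libraries held 12661266 to 31781270 counts, so that 3 counts correspond to 0.0944 to 0.237 CPM. VAS replicates 2 and 3 stood apart from all other libraries: on the first principal component they lay at 188.9 and 189.6, and the other 17 libraries between -79.4 and -1.22. Their log2 CPM correlated at 0.984 with each other and at 0.750 to 0.777 with VAS replicates 1 and 4. Estrogen-response markers were high in CONT, at 14570 to 17330 CPM in sum, and among the mated libraries highest in INT replicates 1 and 2 (11170 and 4349 CPM), in SVX_VAS replicate 2 (10950 CPM) and in VAS replicate 1 (3431 CPM), while INT replicates 3 and 4 were at 203.5 and 271.6 CPM. The summed level of 7 epithelial markers was 3196 to 4330 CPM in CONT and 754 to 2283 CPM in INT, that of 8 stromal markers 6349 to 6806 and 8206 to 10880 CPM, and that of 6 endothelial markers 175 to 258 and 667 to 994 CPM. In INT against CONT 4 of the 7 epithelial markers fell, 4 of the 8 stromal markers rose and all 6 endothelial markers rose. Of the 6 estrogen-response markers 1 was called lower, and their median log2 fold change was -2.04. Uterine gland markers went opposite to the epithelial list, with 4 of 5 higher, and 4 of 5 tested red blood cell markers and all 7 progesterone-response markers were higher as well (summed progesterone-response level 74.2 to 125.6 CPM in CONT and 1293 to 2594 CPM in INT). In bulk tissue, fewer cells of a type and less RNA per cell cannot be told apart, and the part of cell composition in the results below was not tested.

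Only the first listed promoter of each gene was taken, and other starts were not searched. These promoters, 250 bases before to 50 after the annotated start, were matched in RefSeq (GRCm38.p6) for 31 members, all but Slc2a3 and Slc2a4. They were searched on both strands for ACGTG, the core of hypoxia response elements, and for GCGTG, the variant of that core. ACGTG was in 15 of the 31 member promoters and in 19.7% of all 27025 promoters, and GCGTG in 16 of 31 and 32.5%. Either motif was in 22 of 31 members and 43.8% of all promoters. It was in 4 of the 6 promoters of members that rose in INT, in 8 of 11 of those that fell and in 10 of 14 of the others. Counted separately, ACGTG was in 3 of 6, 4 of 11 and 8 of 14, and GCGTG in 2 of 6, 7 of 11 and 7 of 14. These differences were not tested. Both motifs contain CG, and the set of all promoters was not matched to the members for the number of CG. The promoters taken for Aldoa and Hk1 held 0 and 1 CG. The 6 sequences below show 4 genes that fell and 2 that rose (Pfkfb3 and Pygl), and each holds a motif. Among the called members, the promoters of Slc2a12 and Eno2, which rose, held neither motif. Those of Aldoa, Tpi1 and Gbe1, which fell, also held neither. Capitals mark the motifs on either strand, and CACGTG counts once on each strand.
Slc2a1, chr4:119108495-119108794, plus strand: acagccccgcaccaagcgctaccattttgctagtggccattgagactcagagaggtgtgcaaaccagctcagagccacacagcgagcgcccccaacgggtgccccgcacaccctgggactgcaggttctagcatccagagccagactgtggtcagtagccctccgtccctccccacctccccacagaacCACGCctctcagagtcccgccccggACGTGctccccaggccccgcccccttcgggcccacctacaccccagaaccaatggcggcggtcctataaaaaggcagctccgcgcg
Slc16a1, chr3:104638414-104638713, plus strand: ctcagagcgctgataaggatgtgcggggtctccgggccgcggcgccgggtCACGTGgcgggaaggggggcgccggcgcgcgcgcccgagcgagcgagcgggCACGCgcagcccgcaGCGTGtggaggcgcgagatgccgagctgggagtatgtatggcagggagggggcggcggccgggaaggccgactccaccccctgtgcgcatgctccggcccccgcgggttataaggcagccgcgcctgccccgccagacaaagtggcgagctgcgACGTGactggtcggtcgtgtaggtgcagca
Pdk1, chr2:71872974-71873273, plus strand: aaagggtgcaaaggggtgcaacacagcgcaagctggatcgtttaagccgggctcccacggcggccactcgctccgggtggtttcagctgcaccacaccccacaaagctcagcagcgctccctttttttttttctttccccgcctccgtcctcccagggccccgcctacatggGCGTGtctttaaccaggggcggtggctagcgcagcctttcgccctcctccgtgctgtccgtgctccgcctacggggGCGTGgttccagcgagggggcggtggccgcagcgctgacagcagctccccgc
Pgk1, chrX:106186850-106187149, plus strand: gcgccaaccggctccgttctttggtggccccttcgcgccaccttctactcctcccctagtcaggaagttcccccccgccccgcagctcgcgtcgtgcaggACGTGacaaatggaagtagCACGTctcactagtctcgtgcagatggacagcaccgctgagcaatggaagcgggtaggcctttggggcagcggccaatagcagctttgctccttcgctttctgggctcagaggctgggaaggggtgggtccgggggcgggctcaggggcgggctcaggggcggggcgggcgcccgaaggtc
Pfkfb3, chr2:11553880-11554179, minus strand: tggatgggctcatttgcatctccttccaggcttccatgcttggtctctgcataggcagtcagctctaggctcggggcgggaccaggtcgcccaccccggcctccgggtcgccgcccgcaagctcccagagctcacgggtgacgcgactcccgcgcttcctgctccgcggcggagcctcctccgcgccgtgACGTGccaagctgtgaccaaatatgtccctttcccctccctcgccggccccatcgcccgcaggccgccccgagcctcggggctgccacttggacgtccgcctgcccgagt
Pygl, chr12:70227634-70227933, minus strand: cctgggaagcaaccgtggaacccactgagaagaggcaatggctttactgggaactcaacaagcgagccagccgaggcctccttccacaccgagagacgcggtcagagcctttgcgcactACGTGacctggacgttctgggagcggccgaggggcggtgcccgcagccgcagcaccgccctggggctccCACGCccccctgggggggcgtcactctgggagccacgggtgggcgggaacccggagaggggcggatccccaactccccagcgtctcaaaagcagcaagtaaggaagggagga

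The first comparison, INT against CONT, asked how the receptive endometrium after mating differs from the estrous endometrium. On day 3.5 pc the pathway did not move as a block. Transcripts rose for the carriers GLUT3 and GLUT12, the phosphofructokinase activator PFKFB3, muscle-type phosphofructokinase and neuronal enolase. They also rose for the B subunit of lactate dehydrogenase and liver glycogen phosphorylase. They fell for the carriers GLUT1 and GLUT4, 5 enzymes of the glycolytic chain from aldolase A to enolase 1, and the liver phosphofructokinase. They also fell for the glycogen branching enzyme, the lactate carrier MCT1 and the kinases PDK1 and PDK4. Protein was not measured. By edgeR's quasi-likelihood test with Benjamini-Hochberg adjustment (FDR at most 0.05 and at least 1.5-fold), 7 of 32 tested members rose, or 21.9%, against a background of 20.9% of all tested genes. A further 12 fell, or 37.5%, against a background of 12.7%. The median log2 fold change (logFC) of the members was -0.61, and that of all tested genes -0.01. The share that rose was near the background and the share that fell was above it. The count of falls was the less stable: without INT replicate 3 it was 6 (background 11.2%), without INT replicate 4 it was 7 (background 9.88%), and 7 members rose in either case. With glmTreat, which tests against a change of 1.5 times, 7 rose and 3 fell (background 14.4% and 4.92%). The same split is visible in the plot of logFC for the 32 members.

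**Figure D1:**
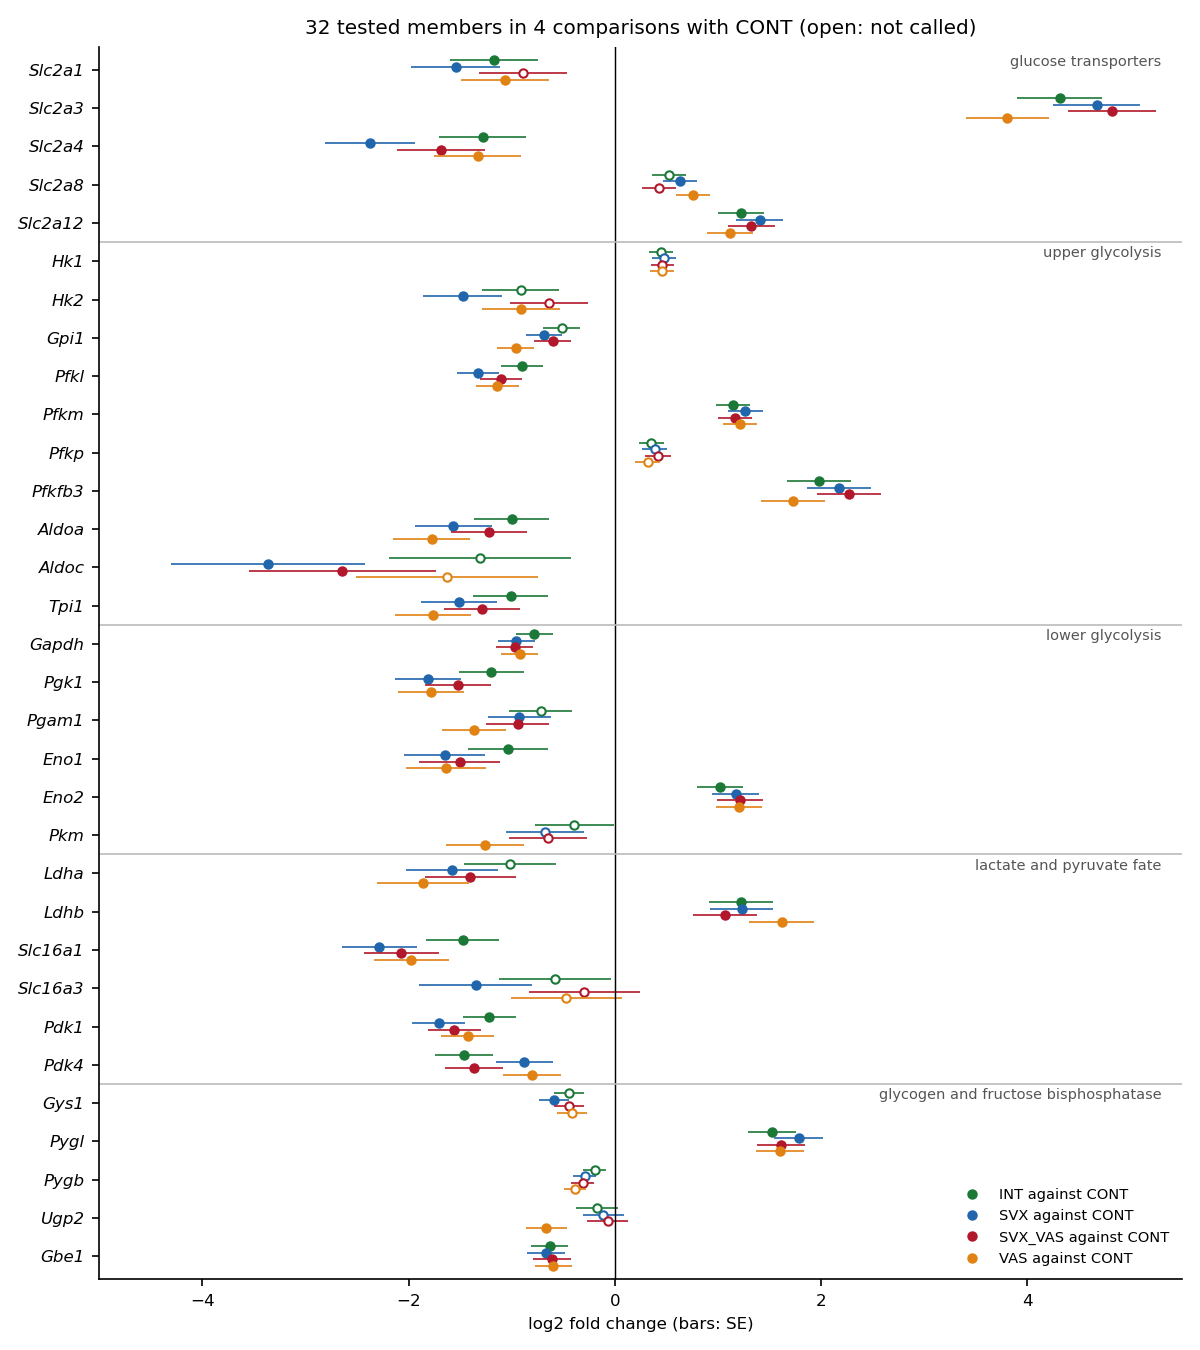
Log2 fold change of each of the 32 tested members in INT, SVX, SVX_VAS and VAS against CONT, with bars of 1 SE and open points where the call threshold was not reached. Slc2a3 lies farthest to the right, at 3.81 to 4.82, and Slc16a1 was called lower in each comparison, at -2.28 to -1.48.

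Among the glucose transporters, Slc2a3, which codes for the high-affinity carrier GLUT3, rose the most of all members. Its level was 13.7, 17.2 and 17.8 CPM in CONT replicates 1, 2 and 4 and 250.3, 227, 311 and 502 CPM in INT replicates 1 to 4. Every INT library lay far above every CONT library, a 19.9-fold rise (logFC 4.31 ± 0.41 SE, FDR 2.62e-06). Slc2a3 lies at chr6:122727809-122801640 on the minus strand (GRCm38). Slc2a12, which codes for GLUT12, stood at 37.9, 44.2 and 38.7 CPM in CONT and at 77.5, 71.5, 109.6 and 117.8 CPM in INT. These ranges did not overlap, with a logFC of 1.23 ± 0.23 (SE) and an FDR of 0.000371. The annotated exons of Slc2a12 share 8.55% of their 50-base stretches with Tbpl1, which overlaps it on the other strand.

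Slc2a1, which codes for GLUT1, the basal carrier of most cell types, moved the other way. It stood at 98.9, 82.5 and 80.6 CPM in CONT and at 57.6, 41.0, 33.3 and 23.7 CPM in INT, so that the groups did not overlap and INT replicate 1, with the highest estrogen-response level of the mated libraries, was the nearest to CONT. The logFC was -1.17 ± 0.43 (SE) with an FDR of 0.0334. The call was lost without any single library other than INT replicate 1, with an FDR of 0.0183 to 0.0972 and a logFC of -1.42 to -0.99. Slc2a4, which codes for the insulin-responsive carrier GLUT4, was at 11.2, 11.5 and 11.8 CPM in CONT and at 9.23, 4.16, 2.85 and 2.73 CPM in INT. It fell, with a logFC of -1.28 ± 0.42 (SE) and an FDR of 0.0196, and INT replicate 1 again lay nearest to CONT. Leaving out INT replicate 3 or 4 gave it an FDR of up to 0.0613. The summed level of fat markers, a tissue rich in GLUT4, was 1.90 to 2.76 CPM in CONT and 0.280 to 2.62 CPM in INT. The 6 skeletal muscle markers summed to 4.67 to 7.81 CPM in CONT and 5.99 to 13.5 CPM in INT. Of them, 2 passed the filter and 1 was called higher, while Myh4 and Myh1 were at 0 in 19 and in 18 libraries. Slc2a8, the intracellular carrier GLUT8, had a logFC of 0.53 and an FDR of 0.0146, short of 1.5-fold.

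**Figure D2:**
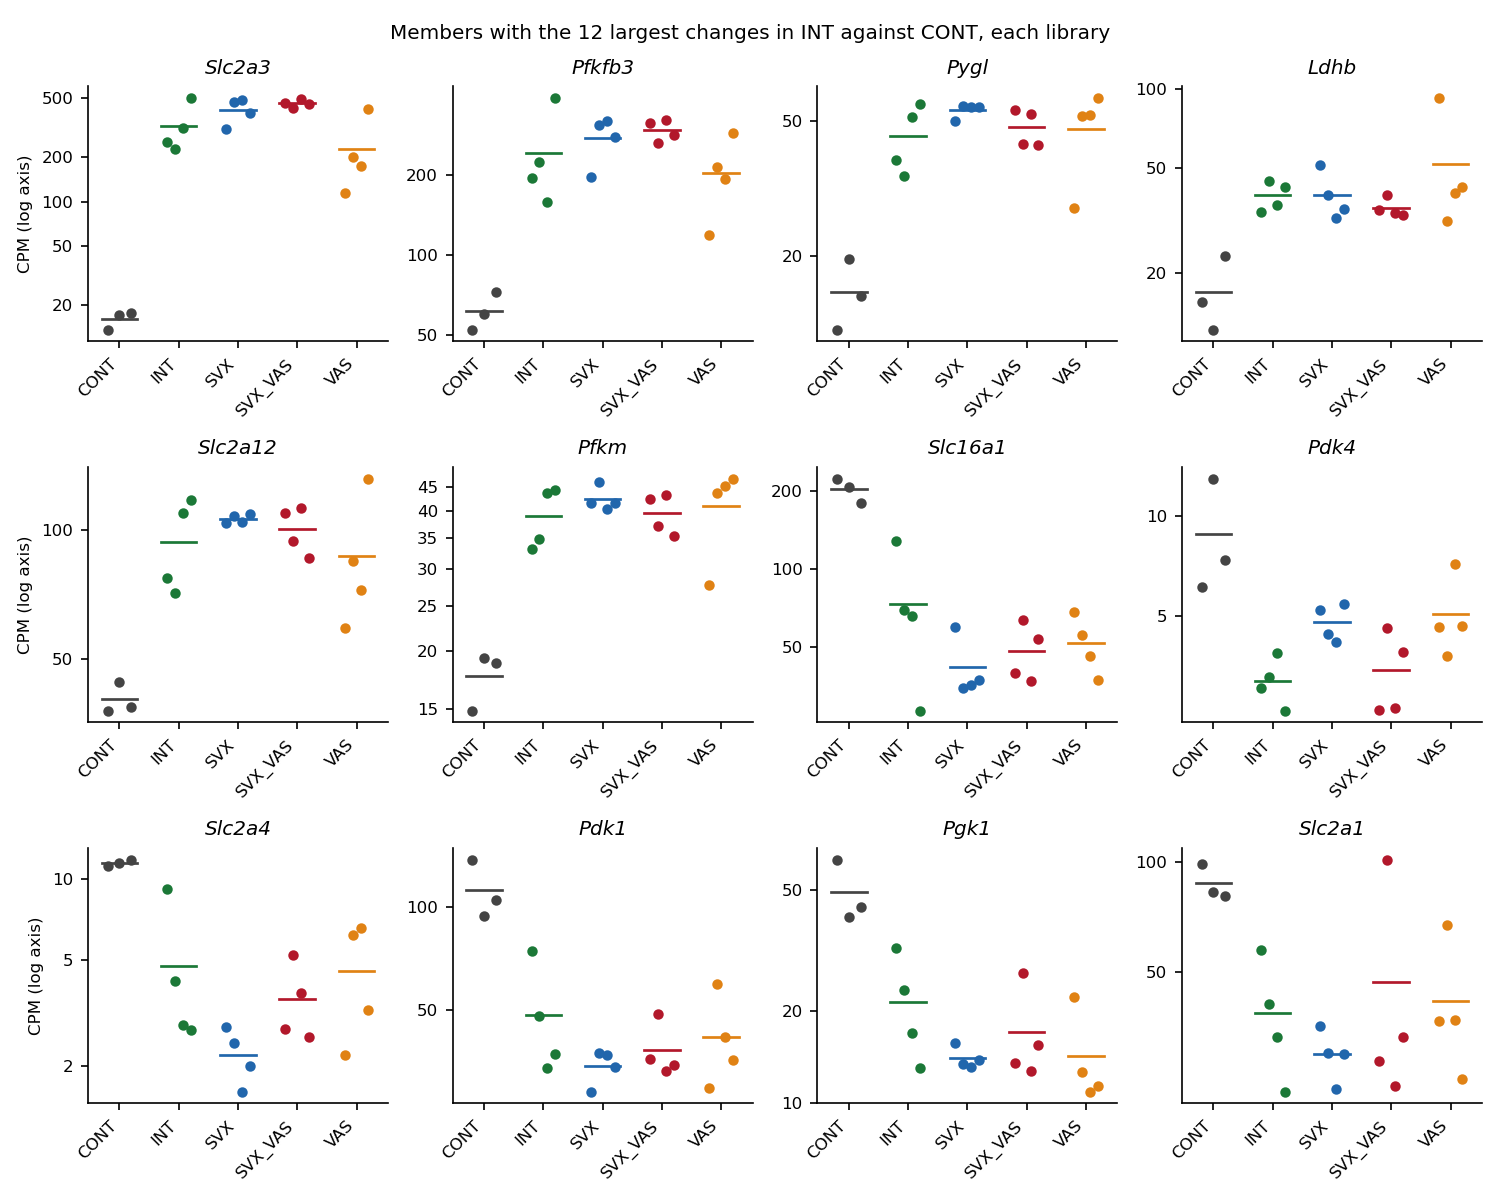
CPM on a log axis of the 12 called members with the largest change in INT against CONT. Points are libraries in replicate order, lines group means. For Slc2a3 all 16 mated libraries lie above CONT, while for Slc2a1 SVX_VAS replicate 2 lies above all 3 CONT libraries.

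The ranks of the members by level changed with the transporters. Per length of exon, as CPM per kilobase (RPKM, mean ± SD), Slc2a3 rose from rank 31 of 33 in CONT (2.24 ± 0.308 RPKM, n = 3) to rank 6 in INT (44.5 ± 17.2 RPKM, n = 4). The first 5 places were held in both groups by Pkm, Ldha, Aldoa, Tpi1 and Ugp2. In CONT they stood at 252 ± 48.5, 231 ± 47.3, 160.3 ± 23.3, 157 ± 26.8 and 59.1 ± 5.48 RPKM, and in INT at 192 ± 32.7, 114 ± 42.9, 80.1 ± 27.8, 78.0 ± 28.3 and 52.5 ± 6.35 RPKM. Pkm and Ldha, and Aldoa and Tpi1, lay within 1 SD of each other in CONT. In INT, Slc2a3 lay within its SD of Ugp2 above it and of Gpi1 (36.2 ± 3.78 RPKM) and Pfkfb3 (32.2 ± 13.7 RPKM) below it. Members that share sequence with other genes, such as Gapdh (rank 17 in CONT, 11.4 ± 1.04 RPKM) and Pgk1, may be undercounted, and their ranks are uncertain.

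In upper glycolysis, from hexokinase to triose phosphate isomerase, 2 of 10 members rose and 3 fell. Pfkfb3, whose enzyme makes fructose 2,6-bisphosphate, the strongest activator of phosphofructokinase, stood at 52.3, 59.9 and 72.5 CPM in CONT and at 196, 224, 158.8 and 394 CPM in INT. The lowest INT library was above the highest CONT library, with a 3.95-fold rise (logFC 1.98 ± 0.31 SE, FDR 9.43e-05). Pfkm, the muscle subunit of phosphofructokinase, was at 14.9, 19.3 and 18.8 CPM in CONT and at 33.2, 34.8, 43.8 and 44.4 CPM in INT. It rose in every INT library (logFC 1.15 ± 0.17 SE, FDR 4.97e-05), although 8.83% of its 50-base stretches also occur in Gm26513. Pfkl, the liver subunit, fell with a logFC of -0.90 ± 0.21 (SE) and an FDR of 0.00189, from 154.9 to 229 CPM in CONT to 73.6 to 121.6 CPM in INT. The third subunit gene, Pfkp, had a logFC of 0.35 with an FDR of 0.0266, below the fold threshold.

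Aldoa, the main aldolase, and Tpi1, triose phosphate isomerase, fell with logFC values of -1.001 and -1.01 and FDRs of 0.0332 and 0.0313. Neither call held without CONT replicate 1, CONT replicate 4, INT replicate 3 or INT replicate 4, with an FDR of up to 0.107 for Aldoa and 0.111 for Tpi1. Hexokinase genes did not pass: Hk1 had a logFC of 0.45 with an FDR of 0.00441, below 1.5-fold, and Hk2 had a logFC of -0.91 with an FDR of 0.056. Gpi1, glucose phosphate isomerase, was below the CONT range in all 4 INT libraries and had a logFC of -0.51 with an FDR of 0.0248. Aldoc, the brain aldolase, spanned 0.980 to 31.2 CPM in INT and 27.4 to 41.8 CPM in CONT. Its INT replicates 1 and 2 stood at 31.2 and 23.3 CPM and its replicates 3 and 4 at 2.51 and 0.980 CPM, and it was not called (logFC -1.31, FDR 0.239).

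In lower glycolysis, from GAPDH to pyruvate kinase, 1 of 6 members rose and 3 fell. Pgk1, which codes for phosphoglycerate kinase, was at 62.8, 40.6 and 43.8 CPM in CONT and at 32.2, 23.4, 16.9 and 13.0 CPM in INT. Its groups did not overlap (logFC -1.20 ± 0.32 SE, FDR 0.00538). The count is uncertain, since 53.9% of the 50-base stretches of Pgk1 also occur in other annotated genes, all 5 of them pseudogenes. Gapdh fell with a logFC of -0.78 and an FDR of 0.00188, and shares 25.1% of its stretches with 223 other genes, of which 215 are pseudogenes. Eno1, the ubiquitous enolase, fell with a logFC of -1.04 and an FDR of 0.0368, and it lost the call without CONT replicate 1 or 4 or INT replicate 3 or 4 (FDR up to 0.158). It shares 26.0% of its stretches, mainly with Eno1b. Eno2, the neuronal enolase, rose with a logFC of 1.02 ± 0.23 (SE) and an FDR of 0.0015, from 5.05 to 9.62 CPM to 14.1 to 18.2 CPM. Pgam1, phosphoglycerate mutase, and Pkm, pyruvate kinase, did not pass, with logFC values of -0.72 and -0.39 and FDRs of 0.0628 and 0.426, and with 36.2% and 25.8% of their stretches shared.

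Among the genes of lactate and pyruvate fate, 1 of 6 rose and 3 fell. Slc16a1, which codes for the lactate and pyruvate carrier MCT1, had the largest fall of all called members, close to that of Pdk4. With 1 library left out, their logFC ranges overlapped, at -1.90 to -1.21 for Slc16a1 and -1.67 to -1.07 for Pdk4. Slc16a1 had this order in the fit with all libraries. It was at 223, 207.5 and 179.8 CPM in CONT and at 128.7, 69.8, 65.8 and 28.4 CPM in INT, with no overlap and with INT replicate 1 nearest to CONT (logFC -1.48 ± 0.36 SE, FDR 0.00284). Slc16a3, which codes for MCT4, the lactate exporter of glycolytic cells, was not called, with 35.5 CPM in INT replicate 1 and 12.5 to 15.2 CPM in the other 3 INT libraries against 26.6 to 32.6 CPM in CONT.

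Pdk1 and Pdk4, whose kinases switch off pyruvate dehydrogenase, both fell. Pdk1 was at 137.4, 93.7 and 104.3 CPM in CONT and at 74.1, 48.0, 33.8 and 37.0 CPM in INT (logFC -1.22 ± 0.26 SE, FDR 0.00111). Pdk4, the form that responds to fasting, was at 6.12, 13.0 and 7.35 CPM in CONT and at 3.03, 3.28, 3.88 and 2.59 CPM in INT (logFC -1.46 ± 0.28 SE, FDR 0.000522). No INT library of either kinase reached the CONT range. Ldhb, the heart-type subunit of lactate dehydrogenase, went the other way, at 15.5, 12.2 and 23.1 CPM in CONT and 34.2, 44.8, 36.3 and 42.3 CPM in INT. It rose in every INT library (logFC 1.23 ± 0.31 SE, FDR 0.00376), and shares 21.0% of its stretches with the pseudogene Gm5514. Ldha, the muscle-type subunit, was below CONT in all 4 INT libraries, at 234 to 543 CPM against 612 to 925 CPM, and missed the threshold (logFC -1.02, FDR 0.069).

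Of the 5 tested glycogen genes, 1 rose and 1 fell. Pygl, liver glycogen phosphorylase, which releases glucose units from glycogen, was at 12.1, 19.6 and 15.2 CPM in CONT and at 38.3, 34.4, 51.3 and 56.2 CPM in INT. All INT libraries exceeded CONT, by 2.88-fold on the fitted scale (logFC 1.53 ± 0.24 SE, FDR 8.52e-05). Gbe1, the glycogen branching enzyme, fell with a logFC of -0.63 and an FDR of 0.00915, and left the call without CONT replicate 2, INT replicate 2 or INT replicate 3, where its logFC was as small as -0.50. Gys1, glycogen synthase, had a logFC of -0.44 (FDR 0.0184), Pygb, the brain phosphorylase, -0.19 (FDR 0.155), and Ugp2, which makes UDP-glucose, -0.17 (FDR 0.516), and none of these 3 passed.

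**Figure D3:**
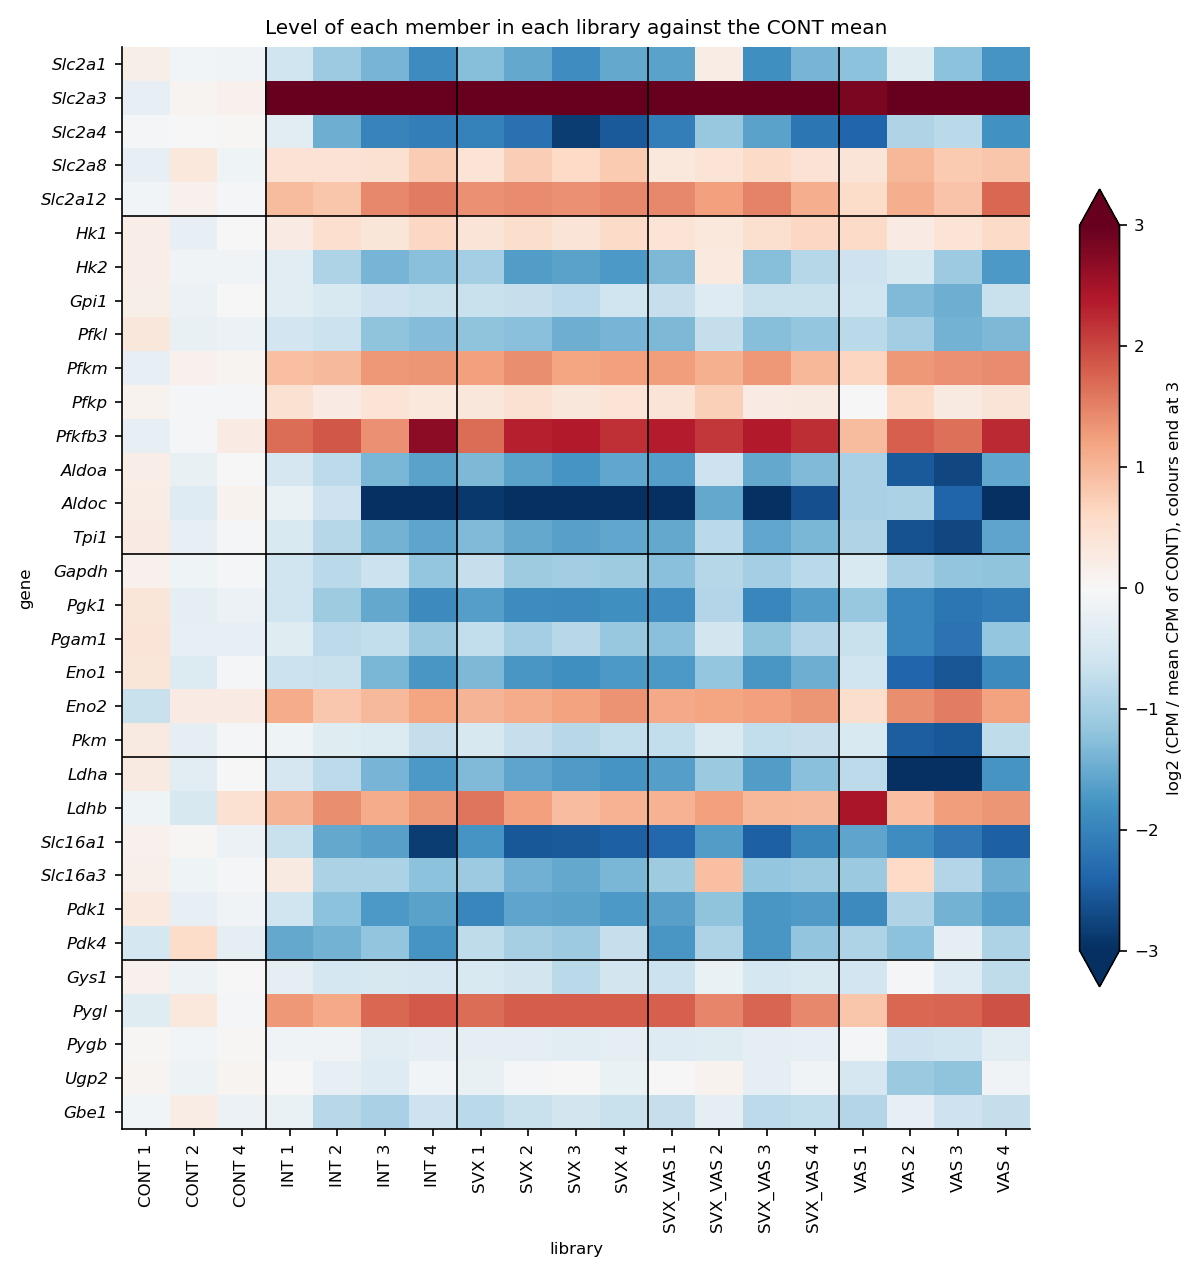
Log2 ratio of each library's CPM to the CONT mean for the members, grouped by role, with colours that end at 3 in either direction. INT replicate 1, SVX_VAS replicate 2 and VAS replicate 1 are paler than the other libraries of their groups for many of the genes that fell.

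The composition of each isozyme family was then compared as the share of 1 isozyme in the family's counts per exon base. GLUT3 transcripts made up 5.33% ± 0.959 (SD, n = 3) of the 5 transporters in CONT and 52.7% ± 7.83 (SD, n = 4) in INT, while the share of Slc2a1 was 58.8% ± 4.42 and 14.5% ± 6.97. Among the phosphofructokinase subunits Pfkl was 78.1% ± 4.12 in CONT and 52.0% ± 8.84 in INT, and Pfkm 11.7% ± 3.21 and 31.7% ± 7.47. These 2 shares were not tested. Pfkp, the member of this family that was tested, was 10.3% ± 0.919 in CONT and 16.3% ± 1.61 in INT. Ldhb was 4.49% ± 1.38 of the lactate dehydrogenase subunits in CONT and 19.4% ± 6.64 in INT, and Eno2 3.61% ± 1.79 and 13.6% ± 5.31 of the enolases. Hk2 was 80.9% ± 1.40 of the 2 hexokinases in CONT and 61.1% ± 9.15 in INT, and Pygb 89.8% ± 2.62 and 72.7% ± 6.10 of the 2 phosphorylases. Slc16a3 was 10.7% ± 1.01 of the 2 lactate carriers in CONT and 19.2% ± 5.24 in INT.

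Of 9 shares tested, 7 did not overlap between CONT and INT. Shares were computed for these families alone, so no background of other gene families stands beside this count. The smallest p that a two-sided exact permutation test of 3 against 4 libraries can give is 0.0571, and all 7 had it, at 0.0735 after Benjamini-Hochberg adjustment over the 9. The shares of Aldoc and Pdk4 overlapped, with exact permutation p-values of 0.571 and 0.686. With all 16 mated libraries against the 3 CONT libraries the exact permutation test reached an adjusted p of 0.0031 for 6 shares, all without overlap, and 0.00531 for Hk2, where SVX_VAS replicate 2, at 80.5%, lay within the CONT range. The adjusted p was 0.380 for Aldoc and for Pdk4. Each share is a ratio within a library, so it does not depend on library scaling, and it shows unequal change rather than which isozyme moved.

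**Figure D4:**
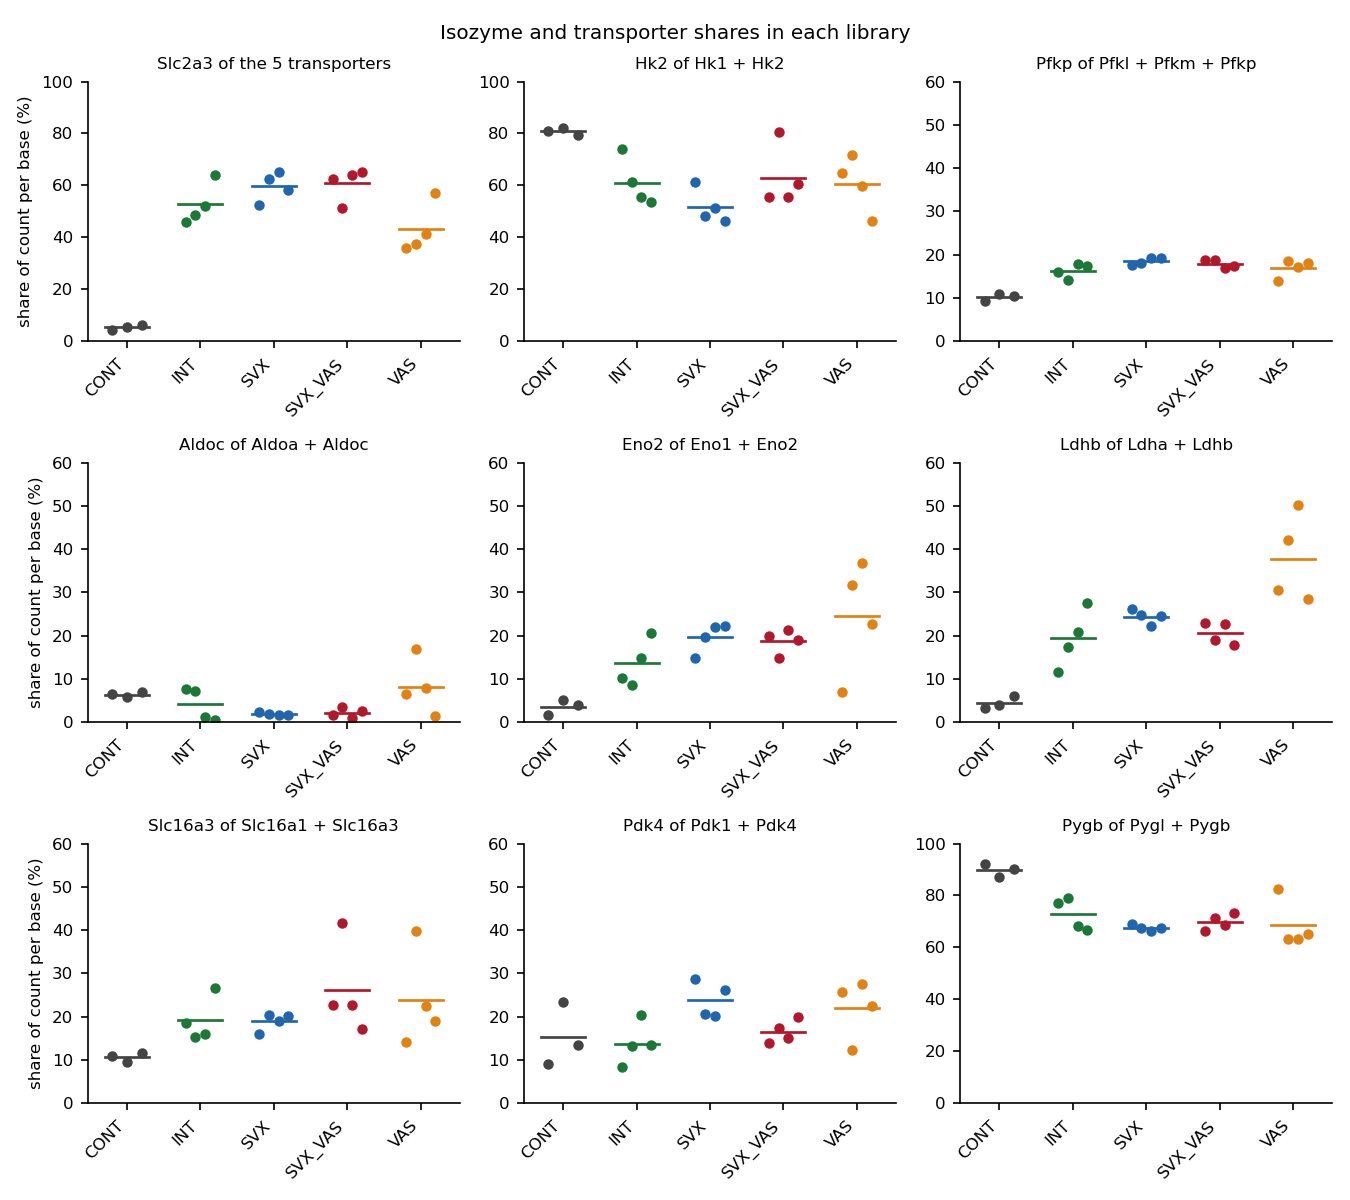
Share, in percent, of 1 isozyme in its family's counts per exon base in each library, with lines at the group means, for the 9 shares tested. Slc2a3 goes from 5.33% of transporter transcripts in CONT to a mean of 43.1% to 60.8% in the mated groups, and Ldhb is highest in VAS, at 37.8%.

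SVX, SVX_VAS and VAS were each compared with the same CONT libraries as INT, so these comparisons share their controls and their calls are not independent of each other. In SVX against CONT, 27 members were called, 8 higher and 19 lower (25.0% and 59.4% of those tested, background 23.1% and 18.4%). SVX_VAS gave 22, with 7 higher and 15 lower (21.9% and 46.9%, background 22.1% and 16.4%), and VAS gave 26, with 8 higher and 18 lower (25.0% and 56.2%, background 23.2% and 17.2%). Median logFC values of the members were -0.78, -0.62 and -0.86. In SVX, SVX_VAS and VAS alike, 5 of the 7 epithelial markers fell and all 6 endothelial markers rose. Of the 6 estrogen-response markers, 6 fell in SVX, 1 in SVX_VAS and 2 in VAS.

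Slc2a3 was the member with the largest rise in each mated group. It was at 307, 470.1, 484 and 396 CPM in SVX, at 459, 428, 492 and 457 CPM in SVX_VAS and at 114, 199, 172.5 and 423 CPM in VAS, with logFC values of 4.67 ± 0.42, 4.82 ± 0.43 and 3.81 ± 0.40 (SE). None of the 16 mated libraries fell below 114 CPM, and none of the CONT libraries exceeded 17.8 CPM. Pfkfb3 followed, with logFC values of 2.17, 2.27 and 1.73 in the same order. Without VAS replicates 2 and 3 in the fit, Ldhb (logFC 2.04) stood above Pfkfb3 (logFC 1.75) in VAS. The Pfkfb3 level ran from 119 CPM in VAS replicate 1 to 323 CPM in SVX_VAS replicate 3. Pygl and Pfkm were more even, with logFC values of 1.60 to 1.78 and of 1.16 to 1.27.

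Slc16a1 had logFC values of -2.28 in SVX, -2.07 in SVX_VAS and -1.97 in VAS, and its level there was 34.7 to 68.4 CPM over 12 libraries. Aldoc, not called in INT, fell in SVX (logFC -3.37, FDR 0.00585) and in SVX_VAS (logFC -2.64, FDR 0.0216), and was not called in VAS (logFC -1.63, FDR 0.126). Ldha and Pgam1, which missed the threshold in INT, fell in SVX, SVX_VAS and VAS, Ldha with logFC values of -1.58, -1.40 and -1.86. Without VAS replicates 2 and 3 in the fit, both were called lower in INT too (Ldha logFC -0.99, FDR 0.00722; Pgam1 logFC -0.70, FDR 0.013), and in VAS the logFC of Ldha was -1.17 in place of -1.86. Gpi1 fell in SVX, SVX_VAS and VAS, and without those libraries it was short of 1.5-fold in SVX_VAS (logFC -0.57). Slc2a1 fell in SVX and VAS and was not called in SVX_VAS, where replicate 2 was at 101.4 CPM and the other 3 libraries at 24.5 to 33.4 CPM (logFC -0.89, FDR 0.0897). Hk2 showed a like pattern, with 229 CPM in SVX_VAS replicate 2 and 73.6 to 104.8 CPM in replicates 1, 3 and 4.

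Slc2a8, Gys1, Slc16a3, Pkm and Ugp2 were called in only 1 or 2 of these comparisons, and Hk1, Pfkp and Pygb in none. For all that, Hk1 lay above the CONT range in all 16 mated libraries, at 75.5 to 97.5 CPM against 53.7 to 72.3 CPM, with logFC values of 0.45 to 0.48 that stay under the fold threshold. With all libraries in the fit, Pkm was called in VAS alone (logFC -1.26, FDR 0.00999), where replicates 2 and 3 were at 119 and 113 CPM and replicates 1 and 4 at 479 and 387 CPM. Ugp2 was likewise called in VAS alone (logFC -0.66, FDR 0.0098), at 84.0 and 78.5 CPM in replicates 2 and 3 and 128.7 and 167.3 CPM in replicates 1 and 4. Without VAS replicates 2 and 3, Pkm had a logFC of -0.57, Ugp2 of -0.27 (FDR 0.137) and Hk2 of -1.05 (FDR 0.0795) in VAS, and these 3 were no longer called, while Gys1 (logFC -0.64) and Hk1 (logFC 0.60) were. In the same fit Pkm was called lower in SVX (logFC -0.65, FDR 0.00164) and in SVX_VAS (logFC -0.61, FDR 0.00279), while Gys1 in SVX and Gbe1 in SVX_VAS were short of 1.5-fold. That fit called 25 members in VAS, with 9 higher and 16 lower (background 23% and 13.2%), 21 in INT, with 7 and 14 (23.8% and 14.2%), 27 in SVX, with 8 and 19 (26.2% and 19.7%), and 21 in SVX_VAS, with 7 and 14 (25.1% and 17.8%).

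The last comparisons asked whether the mated groups differed among themselves. No member was called in SVX, SVX_VAS or VAS against INT by edgeR's quasi-likelihood test, nor by its F-test of any difference among the 4 mated groups, and the background was 0% in each. At an unadjusted p under 0.05 there were 5, 0 and 7 members and 749, 339 and 1831 of all genes in the 3 comparisons, and 2 members and 1213 genes in the F-test. DESeq2 and limma-voom also called 0 members in all 4 tests. Over all genes, DESeq2 called 3, 2, 0 and 14, and limma-voom 0, 0, 1661 and 1396, in the order SVX, SVX_VAS, VAS and F-test.

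The 7 members under an unadjusted p of 0.05 in VAS against INT were Gpi1, Aldoa, Tpi1, Pgam1, Pkm, Ugp2 and Pdk4. The first 6 had negative logFC values, between -0.87 for Pkm and -0.45 for Gpi1, and Pdk4 had 0.66, all with an FDR of 0.452. The outcome depended on single libraries. Without VAS replicate 1, 7 members were called lower in VAS than in INT: Aldoa, Eno1, Gpi1, Ldha, Pgam1, Pkm and Tpi1, with logFC values of -1.50 (Ldha) to -0.59 (Gpi1) and FDRs of 0.0454 to 0.0459, against a background of 3.34% of genes. That fit kept VAS replicates 2 and 3, in which the summed stromal markers were at 2169 and 2373 CPM against 8439 and 10660 CPM in the other VAS libraries. Without VAS replicate 4, Ugp2 was called in VAS against INT (logFC -0.73, FDR 0.0414, background 0.778%), and the F-test called Slc2a3 (FDR 0.0413) and Ugp2 (FDR 0.046) against a background of 0.993%. Without VAS replicates 2 and 3, edgeR called 0 members in each of the 4 tests, with 7, 0, 1 and 1 members at an unadjusted p under 0.05. The numbers over all genes at that p are not given for this fit, so these counts do not set the members against a background.

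Of the 9 isozyme shares, only that of Ldhb differed among the mated groups, by a permutation test with 100000 resamples (adjusted p = 0.0081). Its group means were 19.4% in INT, 24.4% in SVX, 20.7% in SVX_VAS and 37.8% in VAS. The 4 VAS libraries stood at 30.6%, 42.1%, 50.1% and 28.6%, all above the highest library of any other group, 27.6% in INT. In VAS replicate 1 the Ldhb level was 92.7 CPM, the highest of the 19 libraries, while in replicates 2 and 3 the Ldha level was the lowest, at 91.6 and 84.2 CPM. Without replicate 1, 2 or 4 of VAS the permutation test found 2 of the 9 shares to differ, and without replicates 2 and 3 together it found 0. The last of these tests kept only VAS replicates 1 and 4, so it was less able to find a difference.

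Genes beside the 33 were counted in lists drawn by function, each in INT against CONT with the same edgeR call and the same background. Of 10 other tested hexose and monocarboxylate transporters, 4 rose and none fell. Slc5a11, a sodium-coupled inositol carrier, rose with a logFC of 4.44, its mean being 1.87 CPM in the 3 CONT libraries (SD 2.85) and 36.7 CPM in the 4 INT libraries (SD 13.7), and Slc2a13, a proton-coupled inositol carrier, had a logFC of 2.46. Of 13 other tested glycolysis enzyme genes 2 rose, Eno4 and Eno3, with logFC values of 0.97 and 0.65, 1 fell, and the median logFC of the 13 was -0.01.

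Around pyruvate dehydrogenase and gluconeogenesis, 4 of 16 tested genes rose and none fell. Pcx, pyruvate carboxylase, went from 72.8 ± 3.22 to 255 ± 100.8 CPM (logFC 1.81, FDR 0.000251). The kinases Pdk2 and Pdk3 rose with logFC values of 0.76 and 0.73, opposite to Pdk1 and Pdk4. In the tricarboxylic acid cycle 8 of 17 genes fell, Idh3a, Sdhb and Suclg2 among them with logFC values of -0.80 to -0.77, and 1 rose, the mitochondrial isocitrate dehydrogenase gene Idh2 (logFC 0.84).

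Of 22 other tested glycogen genes 3 rose and 2 fell. Pygm, the muscle phosphorylase, went from 3.35 ± 1.36 to 25.8 ± 5.13 CPM (logFC 2.94, FDR 1.01e-05), a larger logFC than that of Pygl. Ppp1r3b, which targets protein phosphatase to glycogen and favours its synthesis, went from 53.5 ± 1.91 to 14.4 ± 12.5 CPM (logFC -1.90, FDR 0.0176). Of 15 genes of the pentose phosphate, polyol and hexosamine branches, 3 rose and 7 fell. G6pdx, which opens the pentose phosphate pathway, fell from 386 ± 31.6 to 125 ± 53.8 CPM (logFC -1.62), and the polyol and fructose genes Sord and Khk rose (logFC 1.58 and 1.93). Gfpt1, the first enzyme of hexosamine synthesis, fell (logFC -1.21) while its paralogue Gfpt2 rose (logFC 1.61).

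Of 24 regulators of glucose use, 4 rose and 5 fell. Hif3a, Myc and Irs2 rose with logFC values of 2.63, 1.79 and 1.07. Ankrd37, Car9 and Arrdc4 fell with logFC values of -2.18, -1.47 and -1.15. Hif1a, which codes for a subunit of the hypoxia-inducible factor, stood at 311 ± 15.1 CPM in CONT and 336 ± 33.6 CPM in INT and was not called (logFC 0.11, FDR 0.669). Of 14 clock genes, 3 rose and 1, Per2, fell (logFC -1.44), beside the difference in the hour of collection.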

How the data were processed

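Endometrial RNA was sequenced as paired-end, stranded total RNA libraries. The authors trimmed reads with AdapterRemoval, aligned them to GRCm38 with STAR and summarised them with featureCounts. What they deposited is a table of whole-number counts, not normalised. The strand setting and annotation release are not given in the sources used here, so overlapping and near-identical genes are uncertain. From the counts, edgeR 4.0.16 (R 4.3.3, limma 3.58.1) was run with TMM scaling over all 19 libraries, and quasi-likelihood tests were adjusted by Benjamini-Hochberg over 17222 genes. Genes needed 3 CPM in 3 libraries, and a call an FDR of at most 0.05 and 1.5-fold (FDR alone for the F-test). CPM and RPKM use TMM-scaled totals. The code was tested on simulated data.

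The members and lists were chosen with earlier results of these data known. Levels are given per library for the 12 members with the largest called changes in INT against CONT. Lists were matched by symbol and at most 3 genes per direction named; 1 gene is not reported here. Sequences shared between genes were counted as 50-base stretches of annotated transcripts. Shares were compared by permutation tests. Alternatives were other scalings, filters and thresholds, DESeq2 1.42.0, limma-voom, a replicate block, fits of 2 groups and libraries left out. Replicate numbers were not used to pair the samples in the main tests.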

Additional observations from a re-analysis of the deposited data

Results flagged for a closer look

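In 164 sets of 4 libraries, 14 held 1 library that lay apart by Dixon's test at its 95% limit. Chance gives this in about 1 of 20 sets. SVX_VAS replicate 2 accounted for 4 of them: it had 101.4 CPM of Slc2a1 (the others at most 33.4), 254.5 CPM of Gpi1 (at most 210.0), 487 CPM of Pkm (at most 406) and 54.6 CPM of Slc16a3 (at most 13.9). VAS replicate 1 accounted for 3: it had the lowest Pfkm level of its group, 27.7 CPM, the highest Pgk1 level, 22.2 CPM, and the highest Pygb share, 82.6%. SVX replicate 1 was highest in its group for Hk2 (93.3 CPM), Gapdh (29.1 CPM) and Slc16a1 (59.6 CPM) and lowest for Pygl (50.1 CPM). Slc16a3 was also highest in INT replicate 1, at 35.5 CPM, and in VAS replicate 2, at 44.1 CPM. Slc2a8 stood out in INT replicate 4, at 12.6 CPM. SVX_VAS replicate 2, INT replicate 1, SVX replicate 1 and VAS replicate 1 also had the highest summed estrogen-response level of their groups. The part of that level in these values was not tested.

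The share of Ldhb in lactate dehydrogenase transcripts differed among the mated groups by 18.4 percentage points between the highest and the lowest group mean (permutation test, adjusted p = 0.0081), and no share did so without VAS replicates 2 and 3. That test kept only VAS replicates 1 and 4, so it was less able to find a difference. Their Ldhb shares, 30.62% and 28.55%, still lay above the highest library of any other group, 27.6% in INT replicate 4.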

How the results depend on the processing

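The count of members called in INT against CONT was 19. It was 10 with glmTreat at 1.5 times, with 7 higher and 3 lower, and 18 to 24 under the other alternatives. Leaving out 1 library gave 13 to 22 members in INT, 23 to 26 in SVX, 18 to 24 in SVX_VAS and 22 to 24 in VAS against CONT. It gave 0 to 0 in SVX and in SVX_VAS against INT, 0 to 7 in VAS against INT and 0 to 2 in the F-test among mated groups. The background in INT against CONT also moved with the library left out. Where no background is given above, these ranges do not set the members against all genes. Of the 19 calls in INT, 13 held with every CONT and INT library left out and 10 under every other alternative. With 1 library left out, 7 to 7 shares did not overlap between INT and CONT, where the exact permutation test cannot reach 0.05. In the test of the 16 mated libraries, 7 to 7 passed. The shares that differed among the mated groups numbered 1 to 2, where 2 were found without VAS replicate 1, 2 or 4 and 0 without VAS replicates 2 and 3, an alternative chosen after seeing the data. With only replicates 1 and 4 left in VAS, that alternative was less able to find a difference. The difference of the Pdk4 share between INT and CONT, -1.52 percentage points, was -4.685 without CONT replicate 1, 2.55 without CONT replicate 2 and 0.310 without INT replicate 1. The cause was not tested.

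With the replicate block, 20, 26, 21 and 25 members were called in INT, SVX, SVX_VAS and VAS against CONT (32.5%, 40.1%, 37.2% and 39.3% of all tested genes) and 0 among the mated groups. Deviations of libraries with like numbers correlated between -0.688 and 0.583. Libraries with unlike numbers were not set beside them, so a pairing by number was not tested. Upper quartile scaling moved the median logFC of all genes to 0.12, 0.16, 0.13 and 0.13 in the 4 comparisons with CONT. Its calls were 8 higher and 10 lower in INT (background 24% and 9.72%), 9 and 15 in SVX (27.2% and 14.3%), 8 and 13 in SVX_VAS (25.5% and 12.6%) and 9 and 13 in VAS (28.7% and 12%). Fbp2 did not pass the filter of 3 CPM in 3 libraries and was not tested.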
